A study of Mus musculus with 6 samples.

Results

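The uninduced state of mouse embryonic stem (ES) cells was described from the 3 control arrays of a series of 6. Every clone derived from the ES line EBRTcH3 and carried the coding sequence of human WBSCR1 with a 3xFLAG tag at the ROSA26 locus, under a promoter that tetracycline represses. Control cells of clones A1, A3 and A4 were kept in LIF with tetracycline, which represses the transgene, and were sampled at 0 h; the transgene itself was not measured here. Induced cells of the same 3 clones were grown for 24 h without tetracycline, and their arrays were used here as second arrays of each clone in tests between clones, in a test against the controls and as a check on genes chosen from the control arrays. The control cells are therefore engineered clones and not the parental line, and the controls share the integrated transgene and the drug. One array was hybridized for each clone and condition. Values are log2 signals, and a single probe set represents each of the 18193 genes, chosen for the highest control mean.

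ES cells come from the inner cell mass of the blastocyst and can self-renew or give rise to all germ layers. Their undifferentiated state is held by a network of transcription factors around Pou5f1, Sox2 and Nanog, which LIF sustains through Stat3 and the Klf factors. Genes that direct later lineages are mostly silent in them and many of these have promoters rich in CpG dinucleotides, whereas many genes of terminally differentiated tissues have promoters poor in CpG.

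A bound for background was read on each array from 115 genes of families with no known role in ES cells, the olfactory, vomeronasal, taste and trace amine receptors and the keratin-associated proteins of hair. The 95th percentile of their signals was 5.68 log2 on the array of A1, 5.75 on that of A3 and 5.69 on that of A4, with a mean of 5.71. A gene was counted as above background when it passed the bound on all 3 arrays and as near background when it was below the bound on all 3. Of the 18193 genes, 10004 were above background, which is 55% of them. Another 7416 genes were near background and 773 passed the bound on 1 or 2 arrays. Among the background genes themselves, 5 of 115 passed on all arrays, and Krtap12-1 was the highest of these at 7.04, 7.21 and 7.13 log2 in A1, A3 and A4, so single genes close to the bound cannot be read as expressed. The signal of a probe set also depends on how well its probes bind, so the order of genes given here is that of array signals and not of mRNA amounts. In total RNA of a culture, fewer cells of a type and less RNA per cell cannot be told apart.

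The 3 control arrays were alike over most genes, with clone A3 farther from the others. Across the 18193 genes, which are not independent replicates, Pearson's r was 0.9974 between A1 and A4, 0.991 between A1 and A3, and 0.9912 between A3 and A4. The poly-A spike-ins, bacterial RNAs added in the laboratory, also read highest in A3, at a mean over 24 probe sets of 6.09, 7.39 and 6.08 log2 in A1, A3 and A4. They were high in the induced array of A3 as well, at 6.35, 7.27 and 5.97. The 3 probe sets for 18S rRNA averaged 5.66, 6.61 and 5.99 on the control arrays and 7.03, 7.27 and 5.99 on the induced arrays, where A1 was nearly as high as A3. Among the hybridization controls, bioC read 8.45, 9.63 and 8.56 on the control arrays and bioB read 7.88, 8.26 and 7.96. The controls bioD, at 11.29, 11.23 and 11.35, and cre, at 13.21, 13.14 and 13.28, were instead slightly lowest in A3. The difference between the 3' and 5' probe sets of Actb, a sign of RNA integrity, was close on the control arrays at 0.40, 0.32 and 0.42. The part of these levels in the differences of A3 was not tested. The sources used here give no scan date or batch for the arrays, so a clone difference and a difference between array runs cannot be told apart. A limma F test over the clone terms, with condition as covariate and 2 arrays a clone, called 5.54% of 45037 probe sets (2496) at an adjusted p of 0.05. At the probe set chosen for each gene the share was 6.8%. Induced and control arrays did not differ at any probe set by limma (0 of 45037, or 0%, after adjustment and 676 at an unadjusted p of 0.05). The t-test of the methods also gave 0 after adjustment and 1096 unadjusted.

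**Figure D1:**
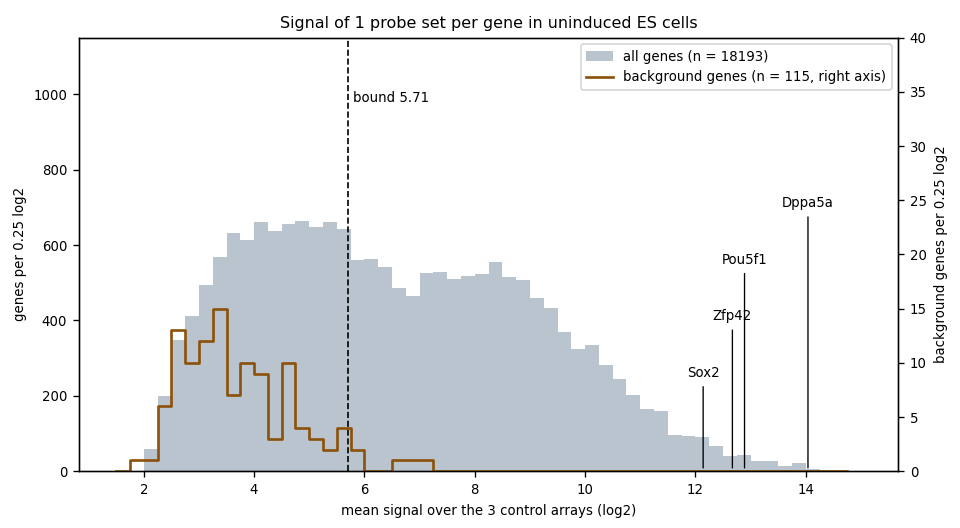
Histogram of the mean log2 signal over the 3 control arrays for 18193 genes (grey bars, left axis) and for the 115 background genes (brown line, right axis), in bins of 0.25 log2. The dashed line is the mean background bound of 5.71, and the 4 ES cell markers lie in the far right tail, between 12.14 for Sox2 and 14.04 for Dppa5a.

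Signals spanned 1.98 to 14.32 log2 with a median of 6.29. Among the genes above background, 4414 had a mean under 8, 3683 a mean from 8 to 10, 1575 a mean from 10 to 12 and 332 a mean of at least 12. The brightest class was the steadiest, with a median SD over the 3 arrays of 0.0693 log2 against 0.111 in the class from 10 to 12 and 0.135 in the class from 8 to 10. None of the 332 brightest genes had an SD over 0.5, whereas 3.34% of the genes with a mean from 8 to 10 did. The highest signals can be compressed, and the part of this in their small SD was not tested. Near background the median SD was 0.113.

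The ES cell label was borne out by its 4 markers. Pou5f1, the POU factor at the centre of the pluripotency network, read 12.91, 12.83 and 12.93 log2 in A1, A3 and A4. Its partner Sox2 read 11.99, 12.44 and 11.99. Zfp42 (Rex1), a zinc finger marker of the naive state, read 12.63, 12.77 and 12.62. Dppa5a, an RNA-binding protein of early embryos and germ cells, read 14.02, 14.05 and 14.06 and ranked 6 among all 18193 genes. All 4 were far above the bound, and their SD over the clones ran from 0.0205 for Dppa5a to 0.262 for Sox2.

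The promoters of the genes at either end of this order differed in their CpG content, and 4 are shown as examples, from 250 bases before to 50 after the start in RefSeq (GRCm38.p6), with each CpG in capitals. Rpl37a, at chr1:72711010-72711309 on the plus strand, was the brightest gene. Pou5f1 lies at chr17:35505782-35506081 on the plus strand. Olig2, a bHLH factor of oligodendrocytes and motor neurons, at chr16:91225300-91225599 on the plus strand, and Alb, the liver gene for serum albumin, at chr5:90460620-90460919 on the plus strand, were both near background, at means of 2.47 and 3.94 log2.
Rpl37a: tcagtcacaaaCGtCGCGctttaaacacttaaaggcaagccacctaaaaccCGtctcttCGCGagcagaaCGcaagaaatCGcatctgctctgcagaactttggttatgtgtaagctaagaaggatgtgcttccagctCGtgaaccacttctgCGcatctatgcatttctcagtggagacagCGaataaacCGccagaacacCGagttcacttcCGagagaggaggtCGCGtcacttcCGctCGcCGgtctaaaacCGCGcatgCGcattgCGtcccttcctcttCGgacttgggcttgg
Pou5f1: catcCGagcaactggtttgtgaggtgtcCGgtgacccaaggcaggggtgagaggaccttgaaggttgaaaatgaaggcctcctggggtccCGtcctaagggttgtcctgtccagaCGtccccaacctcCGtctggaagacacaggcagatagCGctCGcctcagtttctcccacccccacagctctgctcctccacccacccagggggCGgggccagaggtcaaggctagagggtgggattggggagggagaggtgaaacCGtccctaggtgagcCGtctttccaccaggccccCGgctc
Olig2: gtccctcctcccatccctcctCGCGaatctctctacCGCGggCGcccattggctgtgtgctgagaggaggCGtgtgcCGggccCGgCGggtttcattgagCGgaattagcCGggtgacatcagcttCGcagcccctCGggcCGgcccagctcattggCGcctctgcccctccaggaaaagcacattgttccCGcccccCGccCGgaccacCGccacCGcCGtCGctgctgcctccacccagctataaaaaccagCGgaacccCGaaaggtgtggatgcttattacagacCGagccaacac
Alb: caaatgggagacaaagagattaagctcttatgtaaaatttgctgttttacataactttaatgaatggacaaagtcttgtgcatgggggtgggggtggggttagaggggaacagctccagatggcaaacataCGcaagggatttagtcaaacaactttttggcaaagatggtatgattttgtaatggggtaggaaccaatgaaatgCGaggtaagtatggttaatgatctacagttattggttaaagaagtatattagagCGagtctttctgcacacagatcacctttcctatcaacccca
The Rpl37a promoter holds 24 CpG and that of Olig2 holds 25, against 11 in that of Pou5f1 and 3 in that of Alb. A CpG-dense promoter thus stood at the brightest gene and at a gene near background, as these sequences show.

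Over the 14452 genes with a RefSeq promoter, the median number of CpG in 300 bases was 7 for genes near background, 20 for genes above it with a mean under 8, 22 for means from 8 to 10, 23 for means from 10 to 12 and 24 for means of at least 12. Promoters with a GC content of at least 50% and an observed over expected CpG ratio of at least 0.6 made up 27.3% of those near background and 80.9% of those in the brightest class, against 54.2% of all. Transcription factors near background departed from the other genes near background, since 55.3% of 170 such factors had a CpG-rich promoter by this definition, against 26.4% of 5521 other genes. The share was 69.4% of 183 for factors above background. On the pluripotency list 18 of 28 genes had a promoter entry, and 44.4% of these met the definition, against 54.2% of all. So few genes do not set the list apart from the general share. The letters TATAAA, searched on the gene's strand from 45 to 16 bases before the start, were found in 4.71% of promoters near background, in 1.71% of those above it with means under 8, in 0.429% for means from 8 to 10, in 1.38% for means from 10 to 12, in 1.77% for means of at least 12 and in 2.59% of all. These shares describe the promoter windows and are not tests of a factor's binding.

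The 30 brightest genes were led by the translation machinery. Cytosolic ribosomal proteins made up 23 of them. Rpl37a, of the large subunit, was first at 14.30, 14.36 and 14.29 log2. Eef1a1, which brings aminoacyl-tRNA to the ribosome, was next at 14.10, 14.13 and 14.13. The other ribosomal proteins among the 30 ran from Rplp2, at 14.10, 14.16 and 14.05, down to Rps7, at 13.72, 13.71 and 13.70. Within this group the arrays were nearly level, and the SD of Rps14 was 0.0043.

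Besides Eef1a1 and Dppa5a, the remaining non-ribosomal genes were a growth-related protein, chaperones and parts of the actin skeleton. Tpt1, a translationally controlled tumour protein, read 14.21, 13.89 and 14.21 and was the gene among the 30 with the largest spread, an SD of 0.181, with A3 lowest. Hspa8, the constitutive Hsc70 chaperone, read 13.98, 13.84 and 13.94. The small heat shock protein Hspb1 read 13.87, 13.68 and 13.74. Actb, cytoplasmic beta-actin, read 13.79, 13.93 and 14.00, and Tmsb10, a thymosin that binds actin monomers, read 13.84, 13.91 and 13.78. The same 30 genes were the brightest on the induced arrays.

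The order depends on the probe set. For Tpt1 a second probe set averaged 2.86 log2 and for Rpsa 2.97, both near background, while the chosen ones were among the brightest. Taking the mean of all probe sets of a gene left 16 of the 30. Of 43 cytosolic ribosomal protein genes measured, 41 were above background, and the exceptions were Rps16 at 2.75, 2.92 and 2.97 log2 and Rpl39 at 5.57, 5.65 and 5.48. Growing cells depend on these proteins, so a signal near background at the probe set used does not show that a gene is off. Rps16 and Rpl39 each had 1 probe set here, and the 932 probe sets with several symbols were not used for any gene. Whether those would change the order of genes was not tested.

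Other housekeeping complexes were above background almost throughout, where 55% of all genes were. All 10 subunits of RNA polymerase II that were measured passed on all arrays, with a median signal of 10.96 log2. So did all 6 subunits of the MCM helicase that opens DNA for replication, with a median of 12.06. The 16 measured cytosolic tRNA synthetases and 19 measured Sm and snRNP splicing proteins also passed, with medians of 11.06 and 10.92. Members without a probe set of 1 symbol are not counted. The chaperonin CCT had 8 of 9 above background and its testis subunit Cct6b near it. The proteasome had 37 of 39, and its thymus subunit Psmb11 (3.40, 3.71 and 3.46) and immunoproteasome subunit Psmb8 (3.65, 3.80 and 3.56) were near background. The other immunoproteasome subunits Psmb9 (6.58, 6.10 and 6.58) and Psmb10 (8.37, 8.49 and 7.94) passed, as did the testis subunit Psma8 (8.44, 8.88 and 8.49). All 29 common reference genes passed, with Hprt lowest at 5.91, 5.98 and 5.86, close to the bound. The largest subunit of RNA polymerase II, Polr2a, was the only one of the 29 called between clones (10.98, 9.62 and 10.51, adjusted p = 0.0482 by limma), with A3 lowest.

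Marker lists separated the pluripotent state from later lineages. All 28 pluripotency genes measured were above background, with a median signal of 11.44 log2, against 55% and 6.29 for all genes. Their median SD over the clones was 0.172, against 0.123 for all genes. Nanog, the homeobox factor that stabilizes the network, read 12.27, 12.20 and 12.23. Tdgf1 (Cripto), a co-receptor for Nodal, read 12.41, 12.54 and 12.54, and the RNA-binding protein L1td1 read 12.67, 12.27 and 12.63. The lowest was Dppa3 (Stella), a maternal and germ cell factor, at 6.87, 7.91 and 6.90, and it was the only one of the 28 called between clones, 3.57% against 6.8% of all genes (adjusted p = 0.00372), with A3 above both other clones. Prdm14, a repressor of the primed state, was the next lowest at 7.77, 8.30 and 8.09.

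Genes of the primed epiblast, the later and less naive form of pluripotency, were mixed. Of 12 measured, 8 were above background, or 66.7% against 55% of all genes. Of the 12, 5 were called between clones, 41.7% against 6.8% of all genes. The list was chosen with earlier results of these data known, so these shares are descriptions and not tests. Nodal, the signal that patterns the epiblast, read 10.60, 10.52 and 10.29, and its antagonist Lefty1 read 10.30, 11.56 and 9.92. Fgf5, the classical marker of the primed state, was near background at 4.03, 4.07 and 3.91. Otx2, a homeobox factor of the primed epiblast and forebrain, read 5.16, 8.85 and 6.18, so that it was below the bound in A1 and well above it in A3.

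Lineage markers passed the bound less often than genes at large, of which 55% did. The share above background was 6 of 22 for mesoderm, 7 of 21 for endoderm, 4 of 19 for neural ectoderm and 6 of 15 for trophectoderm. The median signal was 5.42, 5.62, 4.91 and 5.35 log2 in these lists. Among those near background were Cdx2, the trophectoderm homeobox factor (4.59, 4.93 and 5.09), Sox1 of the neural plate (5.14, 4.90 and 5.13), Foxa2 of the endoderm (4.59, 4.37 and 4.54) and Mixl1 of the primitive streak (4.83, 4.93 and 4.74). The mesodermal members that passed were all low, the highest being Eomes at 6.21, 6.36 and 6.46. In the neural list Tubb3, a neuronal tubulin, was highest at 8.21, 8.51 and 8.05. The highest endoderm member was Sparc at 10.69, 10.53 and 10.41, and Lama1 passed at 8.38, 7.94 and 8.09. In the trophectoderm list Tfap2c was highest at 7.75, 9.21 and 7.92, and Eomes, Gata2, Krt8, Krt18 and Ascl2 also passed.

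The endoderm list held 9 of 21 genes called between clones, which is 42.9% against 6.8% of all genes. The list was chosen with earlier results of these data known, so this share is a description and not a test. For Dab2, Amn, Cubn, Col4a1 and Col4a2, endocytic and basement membrane genes of primitive endoderm, A1 was highest and A3 lowest in each. Cubn, the receptor cubilin, read 6.68, 4.42 and 5.76 (adjusted p = 0.00292) and Col4a1, a collagen IV chain, read 8.04, 6.47 and 7.80 (adjusted p = 0.00117). Of the factors on the list, Gata4 (5.56, 4.72 and 5.23), Sox17 (5.66, 5.09 and 5.19), Foxa1 and Foxa2 were near background on all arrays. Gata6 (5.65, 4.64 and 5.77) passed the bound in A4 and Sox7 (5.80, 4.80 and 5.53) in A1, and Hnf4a passed on all arrays at 6.37, 6.15 and 6.28. Sox7 (adjusted p = 0.0152) and Foxa1 (4.56, 3.92 and 4.42, adjusted p = 0.0414) were called between clones, both lowest in A3. Lamb1 went the other way, at 9.26, 9.78 and 9.05 (adjusted p = 0.04). A small number of endoderm-like cells was not tested as a source of these signals.

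Markers of cells that could accompany ES cells were examined in the same way. Of 19 fibroblast and feeder genes, 8 were above background, or 42.1% against 55% of all genes. Among them were Vim at 11.58, 10.83 and 11.59 and Fn1 at 10.69, 10.86 and 10.84, both of which ES cells are known to make. The others were Fbln1 at 9.86, 9.81 and 9.87, Thy1 at 7.37, 6.92 and 7.26, Tagln at 7.10, 6.93 and 7.21, Mmp2 at 6.78, 6.78 and 6.86, Col5a1 at 6.27, 6.38 and 6.28 and Acta2 at 5.74, 5.95 and 5.83. The collagens Col1a1 (4.32, 4.23 and 4.29), Col1a2 (5.12, 5.05 and 5.06) and Col3a1 (2.82, 2.79 and 2.56) and the proteoglycans Dcn and Lum, which are abundant in fibroblasts, were near background on every array. None of the 7 genes of the 2-cell-like state measured here passed on all arrays; Zfp352 was highest at 6.16, 5.67 and 6.39. Of 12 genes of blood and endothelium 6 passed, and this 50% is near the 55% of all genes. The highest was the lysosomal Cd68 at 8.42, 8.04 and 8.10, while the pan-leukocyte gene Ptprc was near background at 2.94, 2.75 and 2.67. Of 14 markers of liver, muscle and brain, Ttn and Ckm passed, or 14.3% against 55% of all genes.

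**Figure D2:**
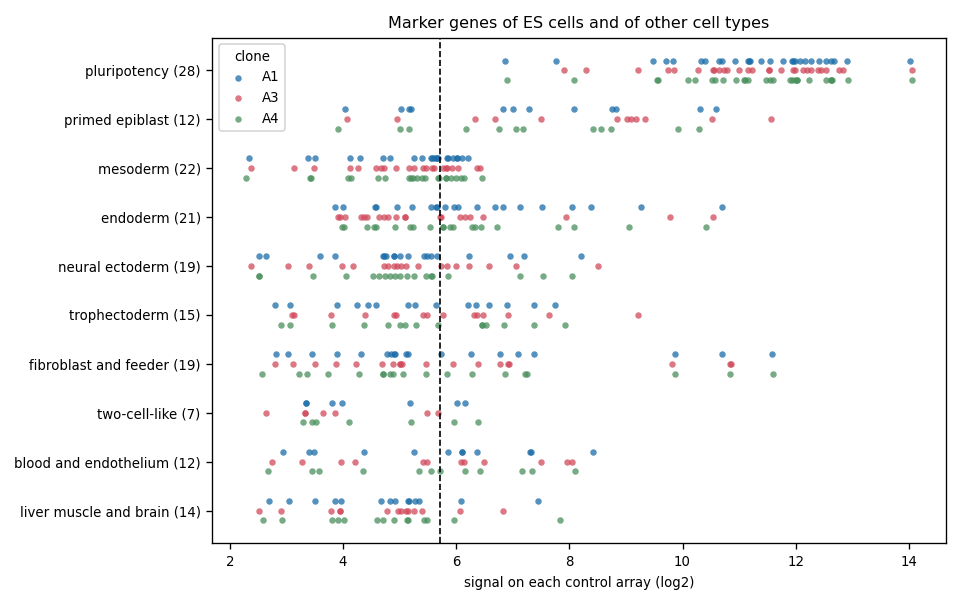
Log2 signal of each marker gene on each control array, with the number of genes measured in parentheses and clones in colours. The dashed line is the mean background bound of 5.71; all 28 pluripotency genes lie to its right, with medians of 11.44 for them and 5.42, 5.62, 4.91 and 5.35 for the mesoderm, endoderm, neural ectoderm and trophectoderm lists.

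The transcription factors listed here passed the bound less often than genes at large. The families were chosen and hold many developmental regulators. The shares below are those of this list and not of all transcription factors. Of 497 factors in 42 families, 235 were above background, or 47.3% against 55% of all genes, and 232 were near it. A mean of at least 12 log2 was reached by 7 factors, which is 1.41% of them against 1.82% of all genes, and a mean from 10 to 12 by 24, which is 4.83% against 8.66%. The brightest was Pou5f1, followed by Zfp42. Klf5, a zinc finger factor of self-renewal, read 12.53, 12.13 and 12.64. Nanog and Sox2 came next, then Utf1, an ES cell chromatin factor, at 12.16, 11.95 and 12.02. Atf4, the factor of the integrated stress response, completed the 7 at 12.25, 11.71 and 12.08.

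The factors ranked 8 to 20 were again mostly of the pluripotency network or of general function. The list of families included a group of 17 other pluripotency and zinc finger factors. The place of such factors in this order therefore depends partly on how the list was made. Sall4 (11.94, 11.74 and 11.90), Dppa2, Klf2, Nr0b1 (Dax1), Dppa4, Esrrb and Klf4 are factors of the ES cell network, and Etv5 (11.85, 11.81 and 11.65) is an Ets factor downstream of FGF signalling. Klf9, Sp1, Yy1 and the E2f partner Tfdp1 are widely expressed. Mycn, the Myc gene of embryonic cells, read 10.96, 11.55 and 10.59 and was called between clones (adjusted p = 0.0134), as was Yy1 at 11.39, 10.51 and 11.52 (adjusted p = 0.00622). Over all 497 factors 37 were called, 7.44% against 6.8% of all genes.

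Families differed in how many members passed. Among POU factors, Pou5f1 was near 13 log2 and the next, Pou3f1, read 7.01, 7.50 and 7.05, with 6 of 11 above background. Among Sox factors 10 of 19 passed, and after Sox2 came Sox4 at 8.99, 9.83 and 9.26 and Sox12 at 9.38, 9.33 and 9.29. In the Klf and Sp family 18 of 23 passed; the erythroid Klf1, with Klf17 and Sp8, was near background. In the T-box family Tbx3, a factor of the ES cell network, read 9.47, 9.21 and 9.57, Eomes was just above the bound and the other 12 were near background. Among nuclear receptors 22 of 44 passed, led by Nr0b1, Esrrb and Rarg.

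Several homeobox and other developmental families had few members above background, where 55% of all genes were. None of 6 Dlx genes, none of 6 Irx genes and none of 3 Cdx genes was above background, 1 of 12 LIM homeobox genes was (Lhx6, at 6.32, 5.93 and 6.06), and 1 of 8 Pax genes was (Pax9, at 6.20, 6.39 and 6.25). Of 33 Hox genes, which set position along the body axis, 26 were near background and 6 passed, the highest being Hoxa7 at 6.73, 6.68 and 6.77. In the T-box family 2 of 14 passed and in the Tfap2 family 1 of 5 (Tfap2c, at 7.75, 9.21 and 7.92), whereas all 3 Gli genes did. All 10 E2f and Tfdp genes passed, from E2f2 at 7.23, 7.17 and 7.22 to Tfdp1 at 10.95, 10.46 and 10.82, and 11 of 13 genes of the Myc network passed. All 6 Grainyhead genes passed, led by Tfcp2l1, a naive-state factor, at 10.70, 10.55 and 10.72. Stat3, the effector of LIF, read 10.01, 9.81 and 10.16, the highest of 6 Stat genes.

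**Figure D3:**
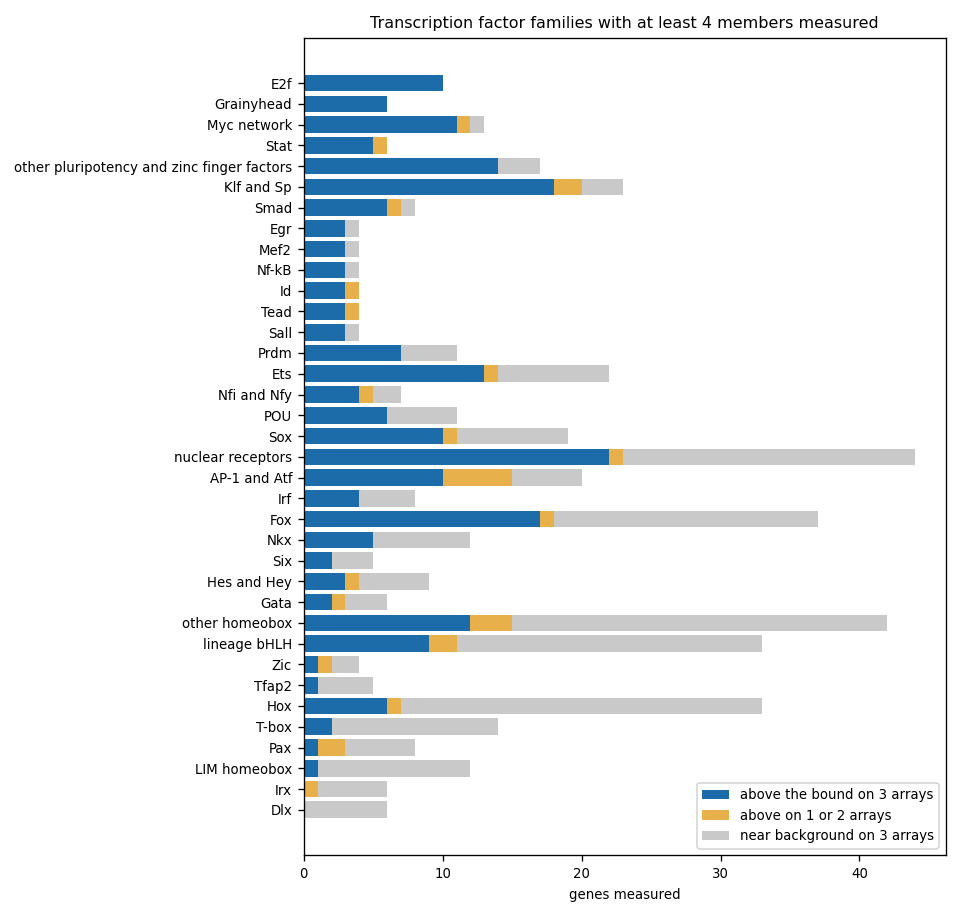
Number of transcription factor genes measured in each family with at least 4 members, split into those above the background bound on all 3 control arrays (blue), on 1 or 2 (yellow) and near background on all 3 (grey). E2f (10 of 10) and Grainyhead (6 of 6) stand at the top, and Dlx and Irx (0 of 6 each) at the bottom.

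Paralogues, members of a gene family with related function, were compared with the bound one by one. In 64 families with 214 members, 193 members were measured, of which 146 were above background, 38 near it and 9 split between arrays. Of all 18193 genes, 55% were above background and 40.8% near it. Of the 58 families with at least 2 members measured, 27 had every measured member above background, and 29 had members both above and near it. In 9 of these 29 families 1 member was above and all others were near. How many such families the general shares alone would give was not tested. Since the brightest probe set of each gene was taken, every other probe set of a member near background was lower still.

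In the skeleton, Actb and the other cytoplasmic actin Actg1 (13.45, 13.43 and 13.38) were bright, and the skeletal, cardiac and enteric muscle actins Acta1, Actc1 and Actg2 were near background at means of 5.28, 5.16 and 3.46. The smooth muscle actin Acta2 was just above the bound. Tubb5 was the brightest of 8 beta-tubulins at 13.36, 13.40 and 13.39, and the platelet form Tubb1 was the member near background at 4.55, 4.36 and 4.36. The epithelial cadherin Cdh1 read 10.86, 11.33 and 10.85, whereas Cdh2 (N-cadherin) passed the bound in A3 alone, at 5.45, 6.78 and 5.48. Of the connexins, Gja1 (connexin 43) read 11.29, 11.27 and 11.25, and Gja4, Gja5 and Gjb2 were near background.

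In energy metabolism all 11 glycolytic enzymes measured passed, with a median signal of 12.46. The glucose transporters Slc2a3 (12.54, 12.95 and 12.83) and Slc2a1 (11.75, 12.69 and 12.08) were bright, the insulin-regulated Slc2a4 was at the bound (5.90, 5.79 and 5.95) and the liver and islet form Slc2a2 was near background (2.96, 3.01 and 3.11). Ldha read 12.90, 13.25 and 12.93 with an SD of 0.192, and Ldhb read 10.39, 12.25 and 10.91 with an SD of 0.961, so that A3 was highest for both. Among glycolytic enzymes 3 of 11 were called between clones, 27.3% against 6.8% of all genes: Pfkl, Pfkp and Tpi1, each highest in A3. This list too was chosen with earlier results known, and its share is not a test. In the respiratory chain, Cox4i1, Cox6a1 and Cox7a2 had means of 12.80, 13.36 and 12.88, and the lung isoform Cox4i2 and the muscle isoform Cox8b were near background at 5.46 and 5.03. The muscle isoforms Cox6a2 (6.24, 6.09 and 6.27) and Cox7a1 (7.23, 7.34 and 7.21) passed the bound on all arrays.

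Copies that are known from male germ cells fell on both sides of the bound. Near background were Pgk2 at 4.23, 4.51 and 4.16 (against 12.84, 13.37 and 13.09 for Pgk1), Pdha2 at 3.35, 3.84 and 3.60 (against 11.28, 11.16 and 11.20 for Pdha1), Ccna1 at 2.71, 2.82 and 2.61 (against 11.25, 11.29 and 11.30 for Ccna2), Ldhc, Hmgb4, Pabpc2 and Slc25a31. Above it were Cox6b2 at 9.10, 9.47 and 9.14, Cox8c at 7.48, 7.66 and 7.61, Rpl39l at 11.69, 12.22 and 11.61 and the testis cytochrome Cyct at 7.47, 5.91 and 7.75. These genes were grouped after their values were seen and are examples, not a full list of such copies. The part of probe design in the low signal of Rpl39 beside Rpl39l was not tested.

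Families of regulators of RNA, chromatin and the cell cycle were of both kinds. Every measured member passed for the BAF60 (3 of 3) and BAF45 (4 of 4) subunits, Ezh (2 of 2), Mbd2 and Mbd3, the retinoblastoma family (3 of 3) and the cell cycle kinases (4 of 4). Lin28a, which blocks let-7 processing, read 11.15, 11.22 and 11.09, and Lin28b read 2.46, 2.19 and 2.19. Of the alternative ATPases of the BAF remodelling complex, Smarca4 (Brg1) read 10.57, 10.36 and 10.48 and Smarca2 (Brm) 4.44, 4.53 and 4.44. Actl6a read 11.02, 11.10 and 11.01, and its neuronal counterpart Actl6b 4.04, 3.98 and 3.95. Of the Tet dioxygenases, which oxidize methylcytosine, Tet1 (11.34, 10.62 and 11.32) and Tet2 (9.19, 8.76 and 9.33) passed and Tet3 was near background (4.82, 4.57 and 4.64). All 4 DNA methyltransferase genes passed, led by Dnmt3l at 12.07, 12.39 and 11.94.

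Among inhibitors of cyclin-dependent kinases, Cdkn2a (4.28, 4.18 and 4.10) and Cdkn2b (5.28, 5.22 and 5.29) were near background, and Cdkn1a (p21) read 9.05, 9.15 and 9.07. Cdkn1c (p57), an imprinted inhibitor, read 9.89, 8.36 and 9.81, with A3 lowest. All 3 D-type cyclins passed, with Ccnd3 at 11.22, 10.92 and 11.15, Ccnd1 at 10.09, 9.48 and 9.74 and Ccnd2 at 6.99, 7.19 and 7.15. Of the receptors of the LIF family, Lifr (8.42, 8.75 and 8.47) and its partner Il6st, or gp130 (8.67, 8.98 and 8.64), passed, Il6ra was split around the bound and the oncostatin receptor Osmr was near background at 4.14, 3.82 and 4.07.

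**Figure D4:**
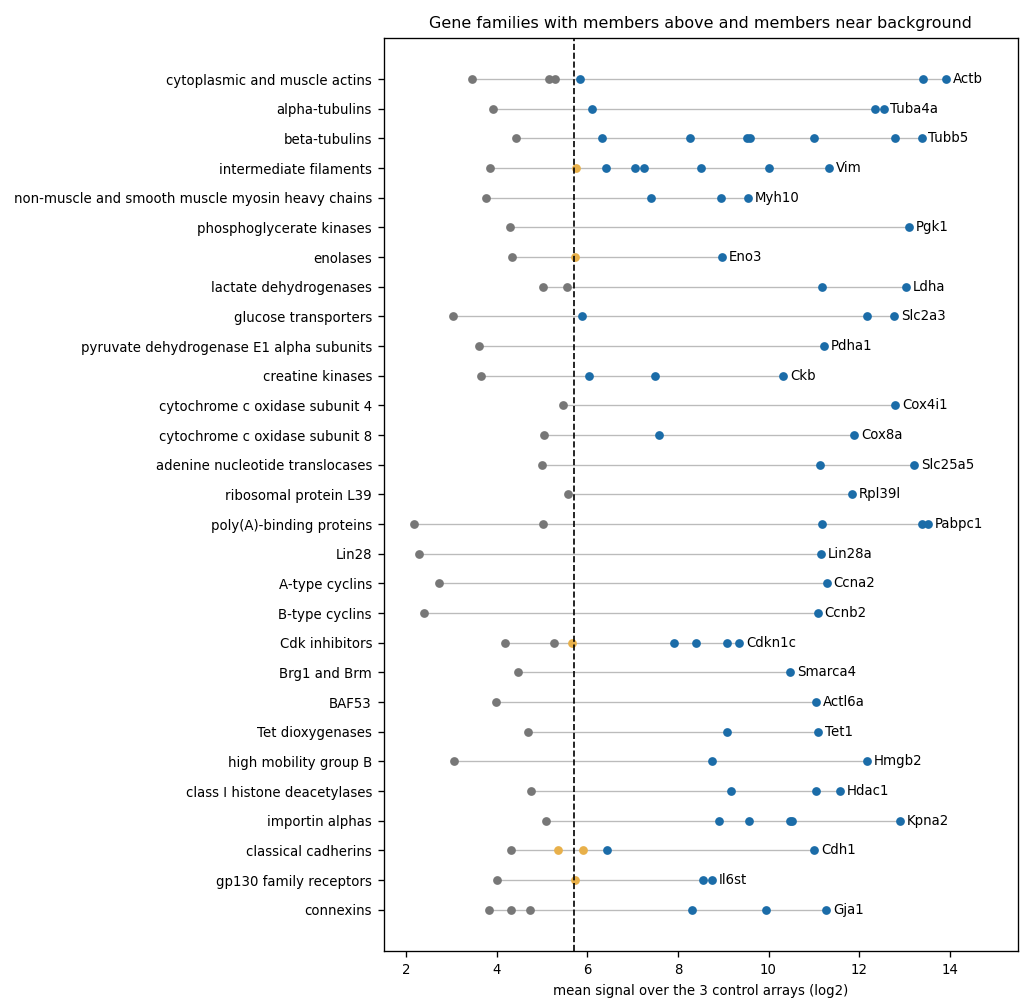
Mean log2 signal over the 3 control arrays for the members of the 29 families that had members both above (blue) and near (grey) background; yellow points passed the bound on 1 or 2 arrays. The brightest member is named and the dashed line is the mean bound of 5.71; Pgk1 at 13.10 and Pgk2 at 4.30, or Lin28a at 11.15 and Lin28b at 2.28, lie on either side of it.

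Few genes varied widely over the control arrays. Of 10395 genes with a mean above the mean bound, 377 (3.63%) had an SD of at least 0.5 log2 and 34 (0.327%) an SD of at least 1. These 34 were chosen on the control values, so no p-value is given for them as a group, and the induced arrays of the same clones were read as arrays the choice did not use. Otx2 and Cldn6 are among the 34 and also among the primed epiblast genes called between clones, and those calls rest partly on the same control arrays. The array farthest from the other two was that of A3 for 32 of the 34, higher for 22 and lower for 10. Over all 10395 genes A3 was farthest for 55.5%, A1 for 22.2% and A4 for 22.3%. On the induced arrays the same clone was farthest for 33 of the 34, and the SD was 0.811 to 2.4. The share with the same clone farthest was not computed over all 10395 genes, so this count does not set the 34 apart.

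The largest spread was that of Aass, an enzyme of lysine breakdown, at 6.07, 10.34 and 6.13 log2 in A1, A3 and A4 on the control arrays and 6.63, 9.94 and 6.33 on the induced arrays. Rhox5, a homeobox gene on the X chromosome expressed in the germ line and extraembryonic tissue, read 9.53, 5.70 and 9.98 and then 9.74, 5.68 and 9.90. A3 was thus high for the first and low for the second under both conditions. Otx2 was sixth with an SD of 1.91 and induced values of 5.62, 8.46 and 6.17. The proteoglycan Srgn read 8.23, 4.96 and 7.47, and the semaphorin receptor Nrp2 read 6.04, 9.23 and 6.73. Also among the first 15 were Cd99, Spink1, Soga3, Zic5 and Ly6g6e, of which Soga3 was low in A3 and the others high, and Gm20767, AF067061 and Usp17la, all low in A3.

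The Y chromosome gave 2 of the 15. Uba1y, a ubiquitin-activating enzyme, read 4.98, 9.25 and 6.79, and Uty, a histone demethylase relative, read 4.16, 7.03 and 6.57, so that both were below the bound in A1 and above it in A3 and A4. The induced arrays gave 5.24, 9.16 and 7.02 for Uba1y and 4.43, 6.93 and 6.80 for Uty. Eif2s3y, a Y-linked translation initiation factor subunit, was above the bound in every clone, at 8.43, 9.45 and 8.76, and Kdm5d and Usp9y were near background. Uty was the 1 variable gene with A1 farthest, and Gm6958 the 1 with A4 farthest (6.24, 5.70 and 7.97).

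Without the array of A3, 4 genes reached an SD of 1 over the pair that remained: Uba1y and Gm6958, which were among the 34, with Malat1 and, through another of its probe sets, Evi5. Malat1, a nuclear long noncoding RNA, read 6.49, 6.23 and 7.92 on the control arrays but 8.03, 6.27 and 6.31 on the induced arrays, so its high value did not stay with a clone. At the threshold, Blnk was just inside with an SD of 1.00, and Myo1f (0.997) and Cyct (0.989) were just outside.

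**Figure D5:**
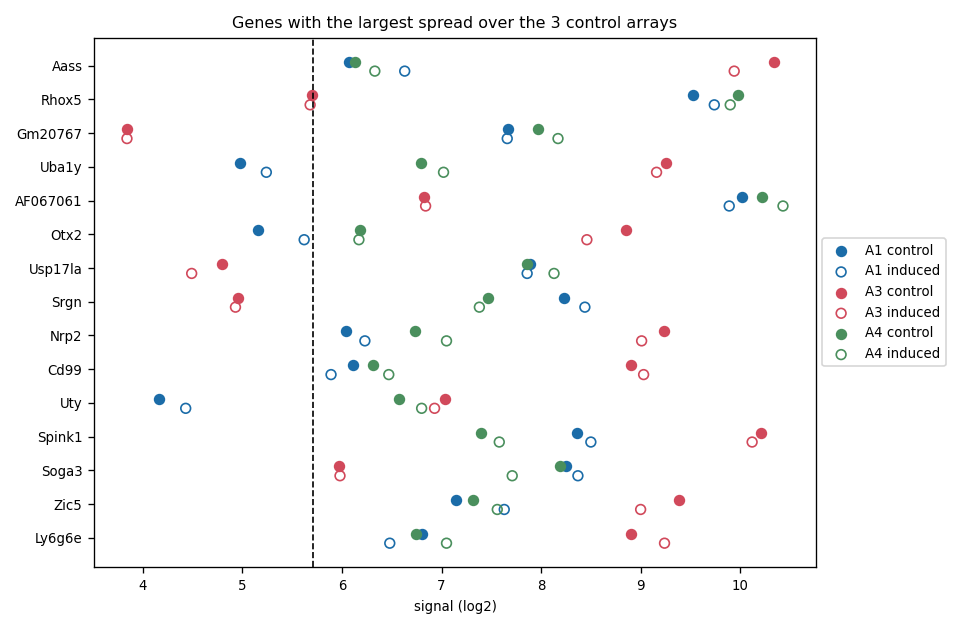
Log2 signals of the 15 genes with the largest SD over the 3 control arrays, for clones A1, A3 and A4 on the control arrays (filled) and on the induced arrays (open). The dashed line is the mean bound of 5.71; A3 stands apart for most of them on both sets of arrays, as for Aass at 10.34 and 9.94.

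At the other extreme, 10 genes with a mean of at least 8 log2 differed least: Sdf2, Oard1, Slc19a1, Gid4, Zfp473, Pmf1, Nlk, Acp1, Rps14 and Srpr. Sdf2 read 9.17 on each control array, with an SD of 0.000127, and an SD of 0.191 on the induced arrays. For 7 of the 10 the induced SD was at least 0.0949. The 559 steadiest of the 5591 genes with such means had a median SD of 0.0279 on the control arrays and 0.0963 on the induced arrays, against 0.123 and 0.154 for all 5591. Acp1, Rps14 and Srpr stayed under 0.03 on both, with induced SDs of 0.0259, 0.0275 and 0.0196. The 559 most variable had medians of 0.409 and 0.41.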

How the data were processed

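RNA of 3 control and 3 induced cultures, 1 of each from clones A1, A3 and A4, was hybridized to Affymetrix whole-genome mouse arrays. The deposited values are log2 signals that the authors computed by the robust multiarray average (RMA) in the affy package (version not given in the sources used here). RMA sets the arrays to 1 common distribution, so a change of total RNA is not visible, and the highest signals can be compressed. No further normalization was applied. Of 45101 probe sets, 64 controls were left out of the tests. The platform annotation gave 1 symbol for 34945, several for 932 and none for 9160; a gene was named only from a probe set with 1 symbol, and 34741 matched RefSeq (GRCm38.p6). The number of arrays limits the precision.

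Clones were compared by lmFit and eBayes of limma 3.58.1 (R 4.3.3) with an F test over clone terms and condition as covariate, and induced with control arrays by condition alone, both two-sided with Benjamini-Hochberg adjustment over 45037 probe sets; the script was tested on simulated data. Replicate numbers 1, 2 and 3 stand for A1, A3 and A4 in the labels, so they pair each clone's arrays; after subtraction of group means these correlated at 0.313, 0.67 and 0.29, though A1 and A4 correlated with each other at 0.348 and 0.369. The 2 arrays of a clone served as its replicates, and p-values measure the spread between them. Named genes were the 30 brightest, the marker and reference lists, the paralogue families, the 20 brightest factors with family counts, the 15 most variable and the 10 steadiest. The members and lists were chosen with earlier results of these data known; the complexes (ribosome, proteasome, chaperonin, polymerase, synthetases, snRNP and MCM) and the promoter windows were added after seeing the data, and Gm6958, Malat1, Evi5, Myo1f, Blnk, Cct6b and the genes named from factor families beyond the 20 were named after their values were seen. Alternatives were other bounds, probe set rules and normalizations, a low-signal filter, a trended robust fit, the replicate block, the methods' t-test and leaving out each array. Plots were drawn with matplotlib 3.10.9.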

Additional observations from a re-analysis of the deposited data

How the results depend on the processing

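The number of genes above background ran from 7646 to 10246 over all alternatives, against 10004, and 27 or 28 pluripotency genes passed in each. With the bound at the 99th percentile of the background genes, 153 transcription factors passed in place of 235; the other alternatives gave 202 to 241. Of the 30 brightest genes, 16 remained when all probe sets of a gene were averaged and 20 without probe sets marked as cross-hybridizing. Leaving out a control array gave 4 to 81 variable genes in place of 34: 67 without A1, 4 without A3 and 81 without A4; the other alternatives gave 24 to 36. Probe sets called between clones ranged from 589 to 1959 when 1 array was left out, against 2496. They numbered 1115 without the control array of A1, 947 without that of A3, 870 without the induced array of A1 and 589 without that of A3; in these fits a clone has 1 array and is assumed to vary like the others. The other alternatives gave up to 3618. With the replicate block, which pairs the arrays of a clone, induced against control still gave 0 probe sets after adjustment (1539 at an unadjusted p of 0.05), and no alternative gave any. Signals near the bound limit what can be said of weakly expressed genes.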

Other observations

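The share of genes above background differed among chromosomes. It was 61.0% of 839 genes on chromosome 17 and 59.2% of 1452 on chromosome 11, against 46.7% of 996 on chromosome 6, 48.4% of 618 on the X chromosome and 2 of 9 on the Y chromosome. These shares are descriptions, and the makeup of each chromosome in receptor gene clusters was not tested.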
